A study of Mus musculus with 6 samples.

Results

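The response to interferon beta (IFN-beta) under SPT6 siRNA was read from 3 of the 6 libraries of the study, chosen by their titles. All 3 came from NIH3T3, an established mouse fibroblast line grown in medium with donor bovine serum, and carried an siRNA against SPT6 for 48 h. One library, numbered replicate 1, was untreated, and no untreated library carried the number 2. Another 2 libraries, replicates 1 and 2, had received recombinant mouse IFN-beta at 100 units/ml for 4 h after the transfection. The other 3 libraries of the study had the same design with a negative control (NC) siRNA and serve here only for comparison. The labels name 1 siRNA reagent for SPT6 and 1 cell line, and the untreated library stands at 0 h, so the effects of IFN-beta and of 4 further hours in culture cannot be told apart. The labels do not say whether replicates were separate cultures, so p-values measure the spread between these libraries, which may be technical.

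SPT6, encoded by Supt6, is a histone chaperone that travels with RNA polymerase II and helps it elongate through chromatin. IFN-beta binds the receptor made of Ifnar1 and Ifnar2, whose kinases Jak1 and Tyk2 activate STAT proteins. These join Irf9 in a transcription factor, ISGF3, that binds the interferon-stimulated response element (ISRE) in front of many antiviral genes. In fibroblasts these interferon-stimulated genes start from low levels and encode proteins that sense, bind or degrade viral RNA, present antigen and recruit leukocytes.

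The files hold 24062 genes, of which 13185 had enough counts to be tested. Counts in genes totalled 7935961 in the untreated library, 9861581 in IFN-beta replicate 1 and 11174825 in replicate 2. Levels are given as CPM, the count divided by the library total after scaling by TMM factors and multiplied up to a common total. Supt6 itself, the target of the siRNA, stood at 101 CPM untreated, 108 CPM in replicate 1 and 88.4 CPM in replicate 2. With the control siRNA it was at 175, 177 and 189 CPM in the same order, above every SPT6 siRNA library. Its IFN-beta difference with SPT6 siRNA was -0.045 ± 0.22 on the log2 scale (edgeR quasi-likelihood adjusted p = 0.981). Fibroblast markers such as Col1a1, Col1a2 and Vim summed to 18970, 17860 and 15330 CPM in the untreated library and replicates 1 and 2. Fap, another of them, had 9, 8 and 0 counts. All 7 macrophage markers in the files summed to 15.59 to 18.88 CPM. Cd68 was the highest of them, at 6.48, 7.75 and 9.92 CPM, and the leukocyte marker Ptprc had 0 to 2 counts. Fewer cells of a type and less RNA per cell cannot be told apart in such bulk libraries. The 7 endothelial markers summed to 15.83, 18.45 and 32.79 CPM, most of it Flt1, and the 7 epithelial markers to 0.71 to 1.04 CPM, with Epcam, Cldn4 and Krt5 at 0 in all 3 libraries.

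The genes called in the response were all interferon-stimulated genes of the lists below, which were chosen with earlier results of these data known. A difference was called where edgeR's quasi-likelihood test gave a Benjamini-Hochberg adjusted p under 0.05 over all 13185 genes. By that rule 6 genes (0.0455% of those tested) rose with IFN-beta and 0 fell, while 506 genes (3.84%) were higher and 265 (2.01%) lower at an unadjusted p under 0.05. The 6 were Cxcl10, Ifi203, AI607873, Helz2, Cd274 and Trim25. Because only 1 untreated library exists, the response is also described without a test: 304 genes (2.31%) were at least 2-fold above the untreated library in both IFN-beta libraries and 116 (0.88%) at least 2-fold below it, on log2 CPM with a prior count of 2. In replicate 1 alone 420 genes reached 2-fold above and 278 reached 2-fold below, and in replicate 2 alone 815 and 699. DESeq2 called 129 genes and limma-voom 0, as set out under the processing alternatives.

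Cxcl10, the chemokine that draws activated T cells, rose most among the called genes, from 0.480 CPM (4 counts) to 96.8 and 74.8 CPM. That was a log2 difference of 7.45 ± 0.50 (standard error; edgeR adjusted p = 0.0311). Both treated libraries lay far above the untreated one and differed little from each other. Cd274, which encodes the inhibitory ligand PD-L1, went from 0.839 CPM to 17.8 and 19.7 CPM, a log2 difference of 4.46 ± 0.40 (edgeR adjusted p = 0.0389). It was one of 2 called genes, with AI607873, that were higher in replicate 2 than in replicate 1. AI607873, of the PYHIN family of DNA-binding interferon-inducible proteins, went from 2.40 CPM to 42.8 and 45.3 CPM, or 4.19 ± 0.34 in log2 (edgeR adjusted p = 0.03165). Ifi203, another PYHIN gene, stood at 9.35, 128 and 104 CPM, or 3.63 ± 0.29 (edgeR adjusted p = 0.03165).

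Helz2, a helicase-domain nuclear coactivator, had 40.4, 349 and 335 CPM, or 3.08 ± 0.26 in log2 (edgeR adjusted p = 0.0355). Trim25, the ubiquitin ligase that activates the RNA sensor RIG-I, had 53.7, 312 and 289 CPM, or 2.48 ± 0.24 (edgeR adjusted p = 0.0492). The 6 genes had close replicates, which the call itself favours, since its error comes from the replicate differences. Replicate 2 minus replicate 1 ran from -0.37 for Cxcl10 to 0.14 for Cd274 in log2 CPM. The median was -0.97 over the 99 interferon-list genes that were 2-fold higher in both. All 6 were also at least 2-fold higher in both libraries with control siRNA. Without SPT6 IFN-beta replicate 1, where 1 library stands against 1 and the spread comes from the control siRNA pair alone, Cd274 had 4.53 in log2 (edgeR adjusted p = 0.05584) and Trim25 2.42 (0.0712), differences much like those above but no longer called. Without control IFN-beta replicate 1, Cd274 had 4.48 (edgeR adjusted p = 0.05581).

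Just outside the threshold, at adjusted p = 0.0503, stood Irgm1, Rtp4, Ccl2, Apol9b and Irf7, followed by Mx2 at 0.051. Irgm1, a GTPase of cell-autonomous immunity, had 16.4, 534 and 362 CPM. Ccl2, the monocyte chemokine, had 42.9, 171 and 183 CPM. Mx2 belongs to a family of antiviral dynamin-like GTPases, and the GRCm38 gene annotation types it as a polymorphic pseudogene. It had 0, 890 and 589 counts. That is at least 197-fold higher with the untreated library set at a floor of 3 counts.

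**Figure D1:**
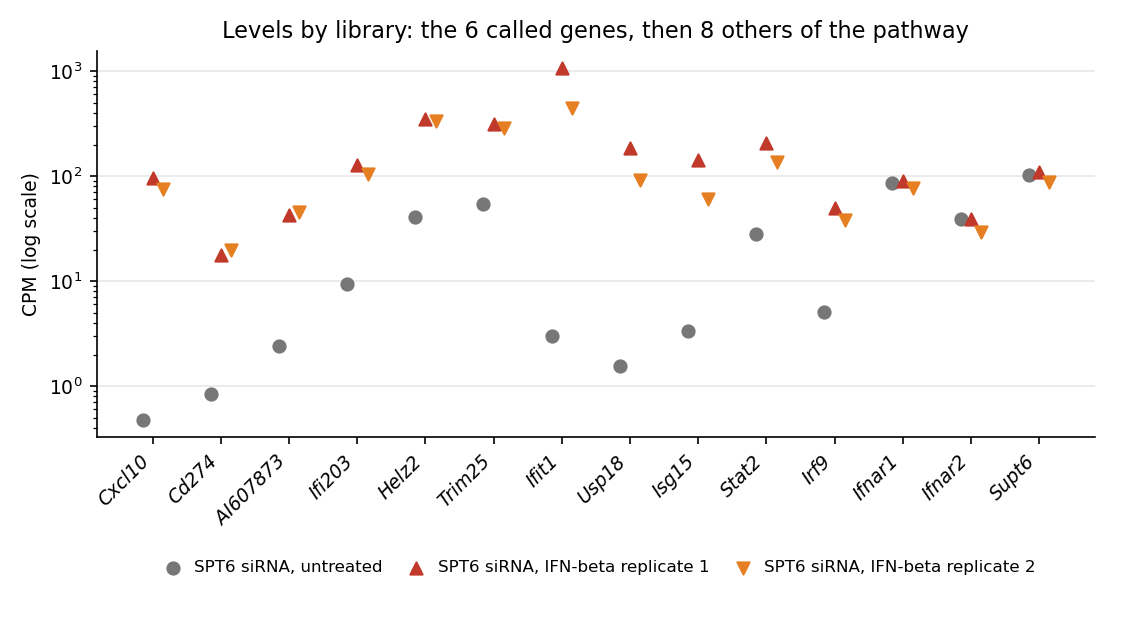
CPM on a log scale with SPT6 siRNA, in the untreated library (circles) and IFN-beta replicates 1 and 2 (triangles). Shown are the 6 called genes and 8 others, the siRNA target Supt6 among them, and each point is 1 library. The triangles of the called genes lie close together, which the call favours. Those of Ifit1, Usp18 and Isg15 stand apart, and Ifnar1, Ifnar2 and Supt6 show no gap to the circles.

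The upstream stretches of 6 responding genes are shown as examples with and without a match to the element that ISGF3 reads. The ISRE core searched was GAAA, any 2 bases, then GAAA again, or its reverse complement (TTTC, any 2 bases, TTTC), on both strands and with overlaps counted, in windows from 250 bases before to 50 bases after each RefSeq start (GRCm38.p6). It lies in 3.44% of all 32851 such windows. Printed 5′ to 3′ on the gene's strand, up to the base before the start, with ISRE cores in capitals, are Cxcl10 (chr5:92348890-92349139, minus), AI607873 (chr1:173741810-173742059, minus, listed in RefSeq as Ifi207), Isg15 (chr4:156200819-156201068, minus), Irgm1 (chr11:48871421-48871670, minus), Ifit1 (chr19:34640744-34640888, plus) and Helz2 (chr2:181242028-181242277, minus).
Cxcl10: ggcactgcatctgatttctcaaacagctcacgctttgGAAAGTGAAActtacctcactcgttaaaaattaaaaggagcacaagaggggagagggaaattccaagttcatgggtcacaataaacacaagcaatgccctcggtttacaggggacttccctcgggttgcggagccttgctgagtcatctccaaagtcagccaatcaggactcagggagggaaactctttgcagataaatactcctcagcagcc
AI607873: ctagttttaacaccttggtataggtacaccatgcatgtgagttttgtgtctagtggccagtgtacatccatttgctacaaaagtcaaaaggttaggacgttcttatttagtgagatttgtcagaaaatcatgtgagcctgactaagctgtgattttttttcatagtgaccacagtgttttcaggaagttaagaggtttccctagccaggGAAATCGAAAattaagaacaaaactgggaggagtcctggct
Isg15: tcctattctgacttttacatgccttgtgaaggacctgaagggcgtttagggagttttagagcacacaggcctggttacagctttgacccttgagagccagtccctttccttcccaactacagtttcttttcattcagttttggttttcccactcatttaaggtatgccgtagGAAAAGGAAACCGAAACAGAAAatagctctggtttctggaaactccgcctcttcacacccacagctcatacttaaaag
Irgm1: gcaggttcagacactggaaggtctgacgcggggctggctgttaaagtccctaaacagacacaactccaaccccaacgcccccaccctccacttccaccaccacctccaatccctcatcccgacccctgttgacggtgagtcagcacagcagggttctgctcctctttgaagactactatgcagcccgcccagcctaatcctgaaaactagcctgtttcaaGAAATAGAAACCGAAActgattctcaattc
Ifit1: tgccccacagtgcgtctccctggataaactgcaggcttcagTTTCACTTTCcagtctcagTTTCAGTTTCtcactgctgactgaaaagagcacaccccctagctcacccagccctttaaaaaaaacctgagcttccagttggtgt
Helz2: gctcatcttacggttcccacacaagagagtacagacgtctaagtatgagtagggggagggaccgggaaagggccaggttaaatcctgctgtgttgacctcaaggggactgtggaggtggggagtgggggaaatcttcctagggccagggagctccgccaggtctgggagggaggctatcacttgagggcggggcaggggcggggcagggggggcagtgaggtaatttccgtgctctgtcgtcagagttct

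The core of Cxcl10 begins 213 bases before its start and that of AI607873 41 bases before. Isg15 holds 3 overlapping cores, the first beginning 78 bases before its start, and Irgm1 holds 2 overlapping cores beginning 30 and 24 bases before. The Ifit1 stretch of 145 bases is all that separates its start from that of 2010002M12Rik, an Ifit1-like gene on the other strand, so the 2 cores shown are counted for both genes. Ifi203 has a core 35 bases before the second of its 2 RefSeq starts and none in the window of the first. Helz2, Cd274 and Trim25, all called, hold no exact match in their windows, which says only that these letters are not there. A comparison of motif shares between gene sets is void, because promoters were matched for 218 of the 304 genes that were 2-fold higher in both libraries (71.7%). Over the windows that were matched, 61 of 277 held the core, a count that is not to be set against the share over all windows.

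The interferon genes were followed in 14 lists ordered by role, with 183 genes, of which 168 were tested. Of these 168, 99 (58.9%) were at least 2-fold higher in both IFN-beta libraries and 0 were 2-fold lower in both, against the 2.31% and 0.88% of all genes tested. At an unadjusted p under 0.05, 104 were higher and 0 lower. All 6 called genes were members. The lists were chosen with earlier results of these data known, so neither these shares nor the membership is an independent test. The median log2 difference over the 168 was 2.02 (1.94 with genes at 0 to 3 untreated counts set at their bound), against 0.00 over all genes tested.

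**Figure D2:**
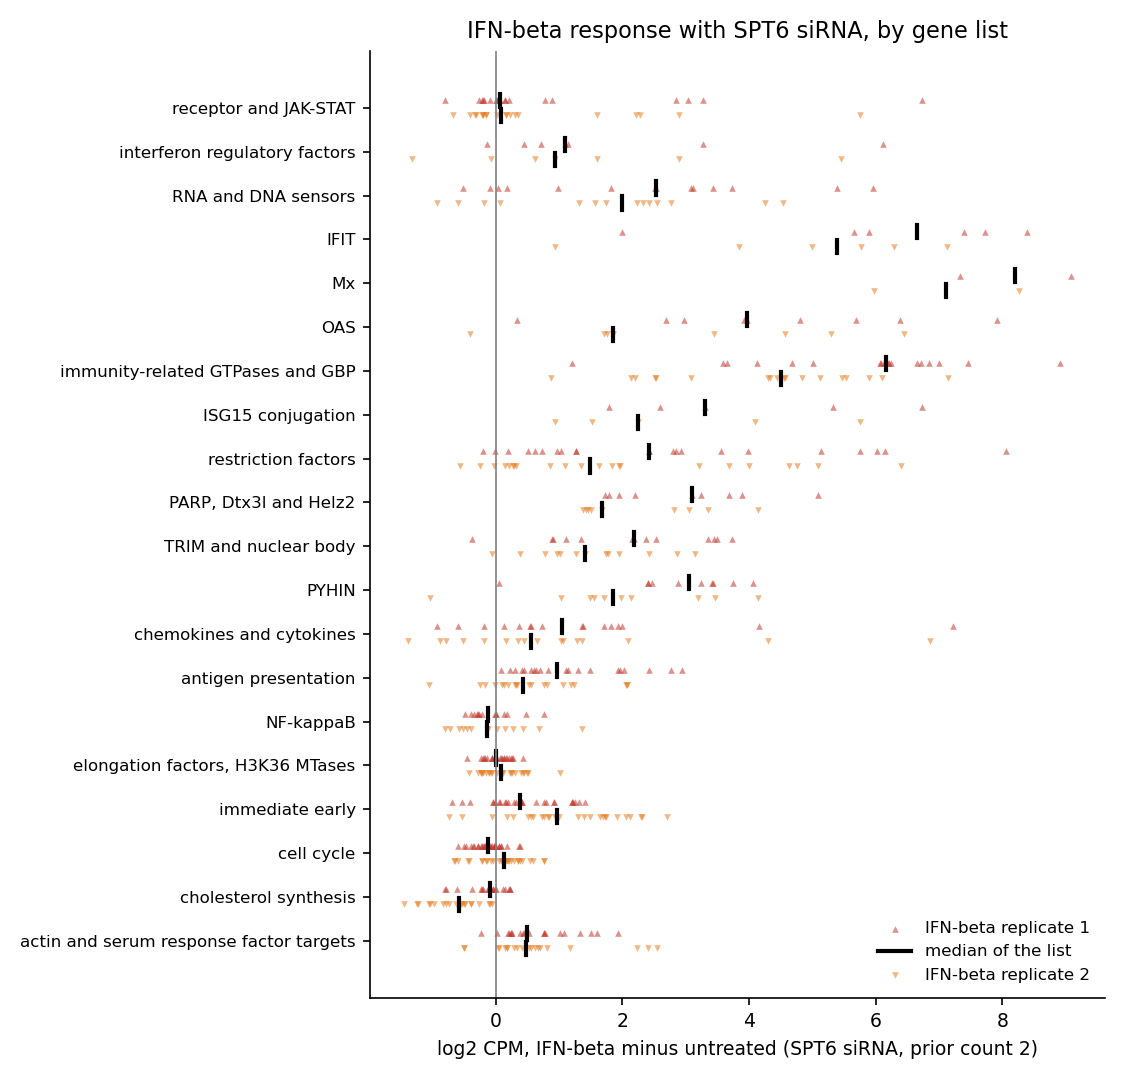
Log2 CPM of IFN-beta replicate 1 (upper row, triangles up) and replicate 2 (lower row, triangles down) minus the untreated library, both with SPT6 siRNA and a prior count of 2, for the members of 20 gene lists; black bars are list medians. The IFIT, Mx and GTPase medians lie farthest right, each with replicate 2 left of replicate 1, and the NF-kappaB, elongation factor and cell cycle lists centre near 0.

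The receptor genes had like levels in the treated and untreated libraries, and the genes of the transcription factors that the receptor activates were higher. Ifnar1 had 86.6, 90.4 and 77.8 CPM in the untreated library and replicates 1 and 2, and Ifnar2 38.7, 39.2 and 29.1 CPM, with edgeR adjusted p of 0.984 and 0.942. Of the 20 receptor and JAK-STAT genes, 4 were 2-fold higher in both libraries, among them Stat2, Irf9 and Usp18. Stat2, a subunit of ISGF3, had 28.3, 205 and 138 CPM, a log2 difference of 2.60 ± 0.37 (edgeR adjusted p = 0.174). Replicate 1 was above replicate 2 and both were above the untreated library. Irf9, the DNA-binding subunit of ISGF3, had 5.04, 49.96 and 38.5 CPM, or 3.13 ± 0.37 (edgeR adjusted p = 0.071). Usp18, the protease that removes ISG15 and dampens receptor signalling, had 1.56, 184 and 92.5 CPM, or 6.46 ± 0.88 (0.2165). The suppressor Socs1 had 10.8, 20.1 and 33.0 CPM, higher in replicate 2 than in replicate 1, and Socs3 had 54.0, 50.7 and 60.4 CPM.

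Of 7 interferon regulatory factors tested, 3 were 2-fold higher in both libraries. Irf7, the factor that amplifies type I interferon production, had 3 untreated counts against 358 and 263, a ratio of 82.5 (exact 95% Poisson interval of the untreated count, 28.2 to 400.2). The third, besides Irf7 and Irf9, was Irf5, at 0.839, 2.04 and 2.87 CPM. Irf1, an early-response activator, had 42.6, 90.6 and 81.3 CPM, 2-fold higher in replicate 1 and just short of it in replicate 2. Irf3, which is present before infection, had 19.9, 18.2 and 18.8 CPM.

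Most sensors of viral nucleic acid were higher. Of 14 tested, 9 were 2-fold higher in both libraries, with a median log2 difference of 2.33. Ddx58, which encodes RIG-I, had 40.9, 348 and 206 CPM, or 2.76 ± 0.45 (edgeR adjusted p = 0.238). Tlr3, the endosomal double-stranded RNA receptor, had 6.24, 68.6 and 37.1 CPM, and Eif2ak2, which encodes the translation-blocking kinase PKR, 78.5, 449 and 264 CPM. Adar, the RNA-editing deaminase, had 75.2, 266 and 223 CPM. The signalling adaptors were not among the 9: Mavs had 26.5, 18.5 and 23.2 CPM, Tmem173 (STING) 5.75, 5.91 and 2.96 CPM, and the kinase Tbk1 60.1, 67.7 and 63.0 CPM.

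The effector families that act on viral RNA had high medians and replicates that stood apart. The IFIT proteins bind viral RNA ends, and 5 of the 6 IFIT genes were 2-fold higher in both libraries, with a median of 6.47. Ifit1 had 2.998, 1063 and 444 CPM, or 7.97 ± 1.05 in log2 (edgeR adjusted p = 0.204), and Ifit3 1.68, 311 and 100 CPM. Ifit2 was the exception to the 2-fold description, at 50.6, 202 and 97.0 CPM, its replicate 2 falling just short. Mx1 had 1 untreated count against 449 and 204, a ratio of 265 with a counting interval of 47.5 to 10460, which shows how little 1 count fixes.

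The OAS enzymes sense double-stranded RNA and make a second messenger, and 8 of the 9 genes tested in that list were 2-fold higher in both libraries. Oas1b, which the GRCm38 gene annotation types as a polymorphic pseudogene, had 0.480, 33.3 and 15.2 CPM, or 5.63 ± 1.03. Oasl2 had 3 untreated counts against 1248 and 525, a ratio of 240 with an interval of 82.2 to 1165, and Oas2 had 0 against 135 and 73, at least 28.0-fold higher. The list median was 5.63 as fitted and 2.68 with its 5 low genes at their bound.

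The immunity-related GTPases and guanylate-binding proteins attack the vacuoles of intracellular pathogens, and 17 of the 18 tested were 2-fold higher in both libraries, with a median of 6.01 (5.80 with low genes at their bound). Irgm2 had 3.48, 274 and 161 CPM, or 5.96 ± 0.60 (edgeR adjusted p = 0.0584), and Igtp 2.52, 270 and 125 CPM, or 6.28 ± 0.90 (0.238). Gbp7 had 1.92, 153 and 72.4 CPM, and Gbp3 1.68, 130 and 43.0 CPM. Each of the 18 was lower in replicate 2 than in replicate 1, by a median of -1.49 in log2 CPM. These genes lie in families with close copies, and reads that did not align uniquely were left uncounted, so single members are uncertain.

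ISG15 is a ubiquitin-like protein attached to other proteins by its own enzyme cascade. Of its 5 genes tested, 4 were 2-fold higher in both libraries. Isg15 had 3.36, 142 and 59.9 CPM, or 4.90 ± 0.91 (edgeR adjusted p = 0.444), the ligase gene Herc6 4.92, 50.2 and 23.9 CPM, and the E1 enzyme gene Uba7 6.48, 40.1 and 18.8 CPM. The E2 gene Ube2l6, at 14.03, 48.8 and 27.1 CPM, was short of 2-fold in replicate 2.

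Among 22 restriction factors, 13 were 2-fold higher in both libraries. Rtp4, a chaperone of receptors that also restricts viruses, had 1.56, 92.5 and 58.4 CPM, or 5.59 ± 0.56. Ifi44 had 3 untreated counts against 1380 and 508, a ratio of 257 with an interval of 87.9 to 1246, and Rsad2, which encodes viperin, had 1 against 181 and 87, a ratio of 109 with an interval of 19.5 to 4286. The membrane proteins Ifitm2 and Ifitm3 had 198, 195 and 133 CPM and 155, 256 and 151 CPM, neither higher in both libraries. Every tested member of this list was lower in replicate 2 than in replicate 1.

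All 9 genes of the PARP, Dtx3l and Helz2 list were 2-fold higher in both libraries, with a median of 3.08. Parp14, a mono-ADP-ribosyltransferase, had 4.80, 168 and 87.6 CPM, and Dtx3l, a ubiquitin ligase that works with Parp9, 13.1, 196 and 135 CPM, or 3.66 ± 0.41 (edgeR adjusted p = 0.0648). Of 13 TRIM and nuclear body genes, 8 were 2-fold higher in both, among them Trim21, a cytosolic antibody receptor, at 6.48, 88.0 and 58.9 CPM, and the chaperone Daxx at 15.6, 71.2 and 53.4 CPM. Of 10 PYHIN genes, 9 were 2-fold higher in both. Ifi202b had 107, 784 and 472 CPM, or 2.55 ± 0.40 (edgeR adjusted p = 0.204). The DNA sensor Aim2 was the exception at 7.31, 7.54 and 3.48 CPM.

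Chemokine and antigen presentation genes were mixed. Of 16 chemokine and cytokine genes, 5 were 2-fold higher in both libraries: Cxcl10, Cd274, Ccl2, Ccl7 and Il15. Ccl7, a monocyte chemokine, had 22.8, 74.8 and 55.5 CPM, while the neutrophil chemokine Cxcl1 had 11.03, 5.71 and 7.65 CPM and the homeostatic chemokine Cxcl12 45.4, 40.0 and 17.3 CPM. Of 20 antigen presentation genes, 6 were 2-fold higher in both. Tap1, the peptide transporter, had 17.9, 122 and 75.4 CPM, or 2.46 ± 0.51 (edgeR adjusted p = 0.466), and Nlrc5, the transactivator of class I genes, 2.88, 12.2 and 12.6 CPM. The class I genes H2-K1 and H2-D1 had 33.8, 59.7 and 38.5 CPM and 143, 177 and 142 CPM, and B2m, their light chain, 348, 513 and 427 CPM.

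The 2 IFN-beta libraries differed in the levels of the interferon genes. Replicate 2 had no untreated library of its own, so a smaller response and other differences between the replicates cannot be told apart. Replicate 2 was lower than replicate 1 for 145 of the 168 tested interferon genes, by a median of -0.73 in log2 CPM, where the median over all 13185 genes was 0.00 and 6600 were lower. Over the 99 that were 2-fold higher, 94 were lower in replicate 2, by a median of -0.97. The same order held with control siRNA, where 156 of the 168 were lower in replicate 2 by a median of -0.64. The 205 genes that were 2-fold higher in both libraries but stood in none of the 14 lists went the other way, with 53 of 205 lower in replicate 2 and a median of 0.45. With control siRNA 100 of these 205 were lower in replicate 2, with a median of 0. Of the 54 that stood in no list and had an average log2 CPM of at least 3, 21 were lower in replicate 2 with SPT6 siRNA, and the median was 0.21. Reads of the ribosomal RNA precursor Rn45s made up 1.34% of counts in the untreated library, 1.04% in replicate 1 and 2.39% in replicate 2, and 1.09% and 1.29% in the control siRNA replicates 1 and 2. The part of this in the replicate difference was not tested. This spread enters the standard errors above and is the error against which every response was tested.

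**Figure D3:**
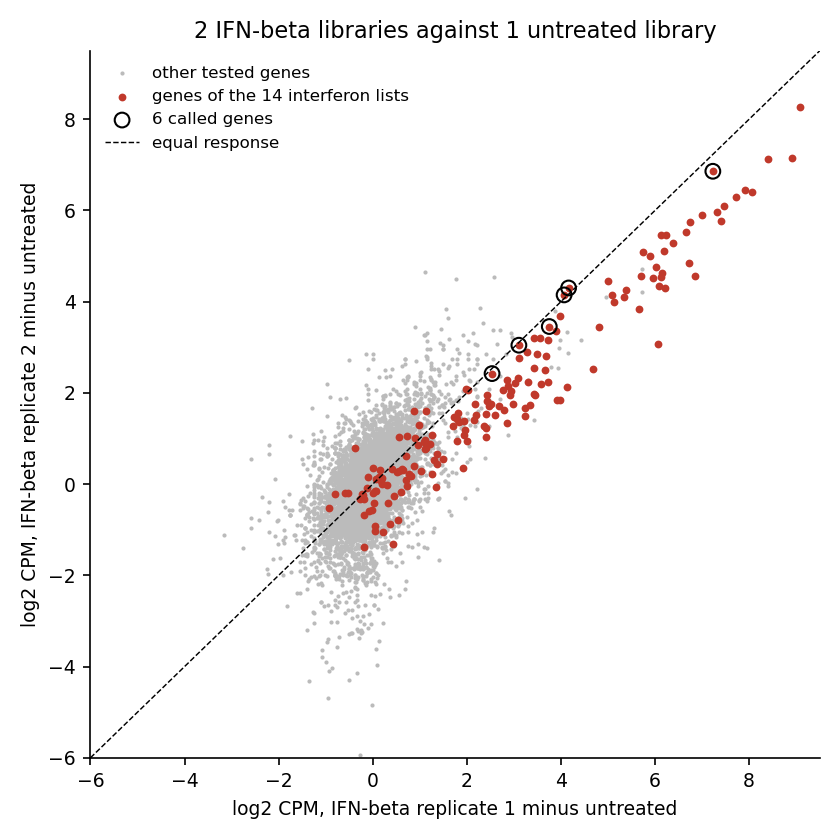
Log2 CPM of IFN-beta replicate 2 minus untreated against replicate 1 minus untreated, SPT6 siRNA, 1 point per tested gene; both axes share the same untreated library. Most genes of the 14 interferon lists (red) fall below the dashed line of equal response. The 6 called genes (ringed) lie close to it, which the call favours.

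Genes outside the interferon lists were also higher in both libraries. Among genes with an average log2 CPM of at least 3, 54 of the 2-fold higher genes stood in none of the 24 lists. The genes of this group named next were chosen after their values were seen. Some are known interferon-inducible genes, such as Ifi47, a GTPase, at 1.80, 104 and 36.5 CPM, Samd9l, an antiviral factor, at 31.4, 490 and 250 CPM, and Xaf1 at 6.24, 100 and 56.6 CPM. Others encode growth factors and were higher in replicate 2, such as the EGF receptor ligand genes Ereg at 27.3, 121 and 274 CPM and Hbegf at 21.5, 53.0 and 125 CPM. With control siRNA these 2 genes were also higher in replicate 2. Ereg had 47.1 and 151 CPM in control IFN-beta replicates 1 and 2, and Hbegf 18.5 and 40.7 CPM. Ptgs2, the inducible cyclooxygenase, had 118, 267 and 513 CPM. None of the 54 was called.

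Immediate early genes, the first to respond to growth factors, were also higher in replicate 2. Of the 28 tested, 6 were 2-fold higher in both libraries, with medians of 0.39 in replicate 1 and 0.97 in replicate 2. Replicate 2 was lower than replicate 1 for 2 of the 28, and for 7 of the 28 with control siRNA. Dusp5, a phosphatase that turns off ERK, had 10.9, 27.3 and 41.5 CPM, and Fos 1.80, 4.38 and 8.35 CPM. Of 20 actin and serum response factor targets, 11 were lower in replicate 2, near the 50.1% of all genes tested. Of these 20, 3 were 2-fold higher in both libraries. Ctgf, one of the 3, had 52.5, 202 and 278 CPM (log2 difference 2.19 ± 0.32, edgeR adjusted p = 0.174). Cyr61, another, had 75.5, 190 and 356 CPM. Both were higher in replicate 2, unlike the 11. Flt1, the endothelial marker that made up most of its list, moved alongside at 11.9, 14.99 and 26.9 CPM, and its part in these differences was not tested.

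Other lists had medians nearer to 0. Of 14 NF-kappaB genes, 0 were 2-fold higher or lower in both libraries (median -0.14), with Nfkbia, the inhibitor that NF-kappaB induces, at 43.0, 48.7 and 51.7 CPM. Of 26 elongation factor and H3K36 methyltransferase genes, 0 were 2-fold higher or lower in both (median 0.05). Whsc1, which encodes the H3K36 methyltransferase NSD2, had 158, 176 and 221 CPM, Setd2 220, 217 and 186 CPM, and Supt5 151, 134 and 160 CPM. For the 32 cell cycle genes the median was 0.03. The 20 cholesterol synthesis genes all lay below 0, with a median of -0.26 and with 0 at 2-fold below in both, and Mvk, mevalonate kinase, had 67.9, 39.1 and 28.9 CPM. Replicate 2 was below replicate 1 for 18 of these 20, and for 19 of the 20 with control siRNA. A missed threshold with this spread does not show that these genes did not respond.

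Genes that were lower with IFN-beta were fewer, and none was called. Among genes with an average log2 CPM of at least 3, 15 of the 116 genes that were 2-fold lower in both libraries remained. Adamts5, an aggrecan-cleaving protease, had 166, 56.5 and 44.4 CPM, a log2 difference of -1.72 ± 0.26 (edgeR adjusted p = 0.174). Its relative Adamts1 had 194, 88.3 and 65.4 CPM, or -1.34 ± 0.27 (edgeR adjusted p = 0.357). Cemip, which is needed for hyaluronan breakdown, had 76.9, 21.7 and 12 CPM, or -2.19 ± 0.64 (0.768). These 3 genes were also lower in both IFN-beta libraries with control siRNA, Adamts5 at 172, 74.2 and 55.2 CPM. Cacna1g, a calcium channel gene, had 24.9, 11.7 and 1.65 CPM, so on the log scale its 2 treated libraries differed more from each other than replicate 1 did from the untreated one. The PDGF receptor gene Pdgfra, a fibroblast marker, had 732, 498 and 225 CPM.

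**Figure D4:**
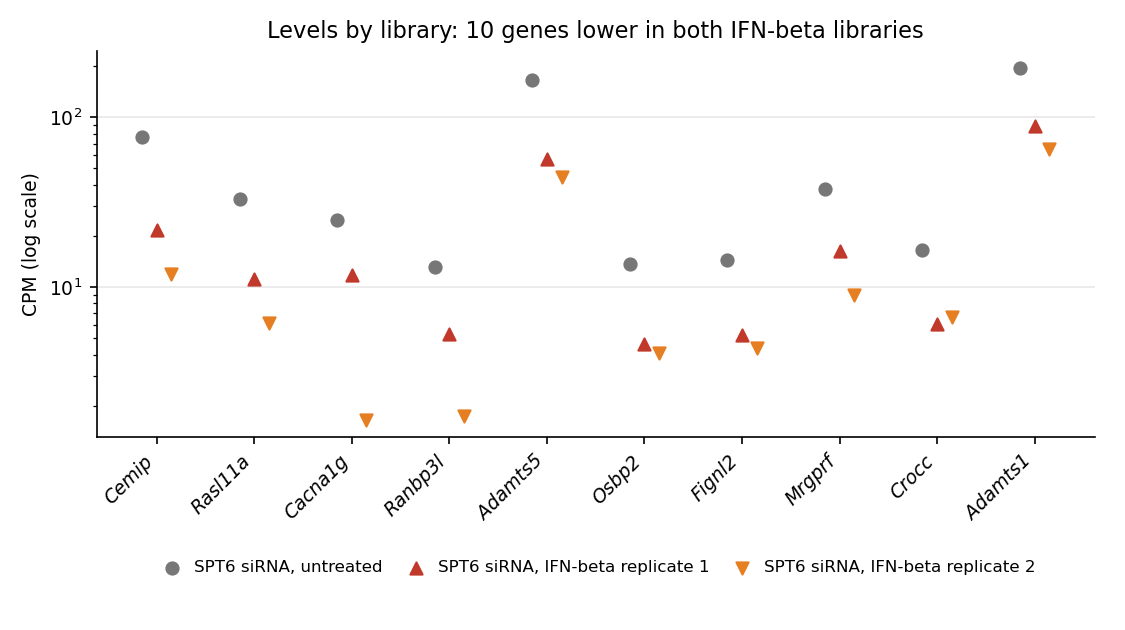
CPM on a log scale in the 3 SPT6 siRNA libraries for the 10 genes with the lowest log2 differences among those 2-fold lower in both IFN-beta libraries with an average log2 CPM of at least 3; each point is 1 library. Every triangle lies below the circle of its gene, with the triangles of Adamts5 and Crocc close together and those of Cacna1g far apart.

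Set beside the control siRNA, the higher genes of the interferon lists were largely shared. Among all 2-fold higher or lower genes, sharing varied with the level of the genes. That level is an average over all 6 libraries, the treated ones of both siRNAs included. Genes higher with both siRNAs reach it more readily, so the cut itself favours shared higher genes. With control siRNA, 18 genes (0.137%) rose by the adjusted p, 282 (2.14%) were at least 2-fold higher in both IFN-beta libraries and 184 (1.4%) at least 2-fold lower. Of the 304 genes higher with SPT6 siRNA, 182 were also higher with control siRNA, which is 59.9% of the first list and 64.5% of the second. With an average log2 CPM of at least 3 the shared genes were 134 of 143 (93.7%, and 70.2% of the 191 with control siRNA), and below that level 48 of 161 (29.8%). Within the 14 interferon lists 97 genes were 2-fold higher with both siRNAs, 98% of the 99 with SPT6 siRNA and 91.5% of the 106 with control siRNA. Of the 116 genes 2-fold lower in both libraries with SPT6 siRNA, 32 were also 2-fold lower with control siRNA, which is 27.6% of the first list and 17.4% of the second. Among those with an average log2 CPM of at least 3, the shared lower genes were 7 of 15, and below that level 25 of 101 (24.8%). Oas1c and Il15 met the 2-fold description with SPT6 siRNA alone, and 9 genes, among them Irf1, Ifit2, Socs1 and Pml, with control siRNA alone. Falling on different sides of a 2-fold line does not show that the responses differ.

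The difference between the responses was tested gene by gene as an interaction. No gene passed the adjusted p (edgeR, 0 of 13185, smallest adjusted p = 0.9999). At an edgeR unadjusted p under 0.05 stood 50 genes (0.379%), 39 of them higher and 11 lower with SPT6 siRNA. Without any difference, a share near 0.05 of all genes would be expected there. The test was thus conservative, and its 0 calls do not show that the responses are alike. DESeq2 and limma-voom also called 0, while 1 of the processing alternatives, the replicate block, called 4, Nr4a1 and Nr4a2 among them. Over the 168 interferon genes the median of the SPT6 siRNA response minus the control siRNA response was -0.24, with 123 of 168 below 0, against -0.01 and 6719 of 13185 for all genes tested. Cxcl10 showed a difference of -1.73 ± 0.99, with control siRNA levels of 0.246, 172 and 126 CPM. Its untreated counts, 4 with SPT6 siRNA and 3 with control siRNA, were low and entered this difference. Ifit1 had a difference of -1.25 ± 1.24, with control siRNA levels of 2.14, 1724 and 833 CPM (both genes edgeR adjusted p = 0.9999).

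Below 0, the 5 genes with the smallest unadjusted p included Ccl2 and Apol9b. Ccl2 had 25.6, 197 and 191 CPM with control siRNA, so its higher untreated level with SPT6 siRNA (42.9 CPM) entered a difference of -0.88 ± 0.28 (edgeR unadjusted p = 0.0164, adjusted p = 0.9999). Apol9b, an interferon-induced apolipoprotein L gene, had 1.08, 19.5 and 15.9 CPM with SPT6 siRNA and 0.246, 19.5 and 15.97 CPM with control siRNA. Its treated levels were alike and its untreated counts, 9 with SPT6 siRNA, were low, for a difference of -2.09 ± 0.71 (edgeR unadjusted p = 0.0227, adjusted p = 0.9999).

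Above 0, the nuclear receptor genes Nr4a1 and Nr4a2 were among the 5 genes with the smallest unadjusted p. Nr4a1 had 37.9, 46.4 and 68.2 CPM with SPT6 siRNA and 45.2, 16.04 and 12.6 CPM with control siRNA, a difference of 2.26 ± 0.43 (edgeR unadjusted p = 0.00148, adjusted p = 0.9999). Both treated libraries were above the untreated one with SPT6 siRNA and below it with control siRNA. Nr4a2 had 18.5, 20.6 and 36.9 CPM against 22.8, 8.66 and 8.67 CPM, or 2.03 ± 0.53 (edgeR unadjusted p = 0.0073, adjusted p = 0.9999). Cd274 had 1.73, 16.1 and 15.02 CPM with control siRNA and a difference of 1.30 ± 0.52 (edgeR unadjusted p = 0.0425, adjusted p = 0.9999). Its untreated counts, 7 with SPT6 siRNA and 21 with control siRNA, entered this difference. The mean treated levels were 18.75 CPM with SPT6 siRNA and 15.56 CPM with control siRNA.

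**Figure D5:**
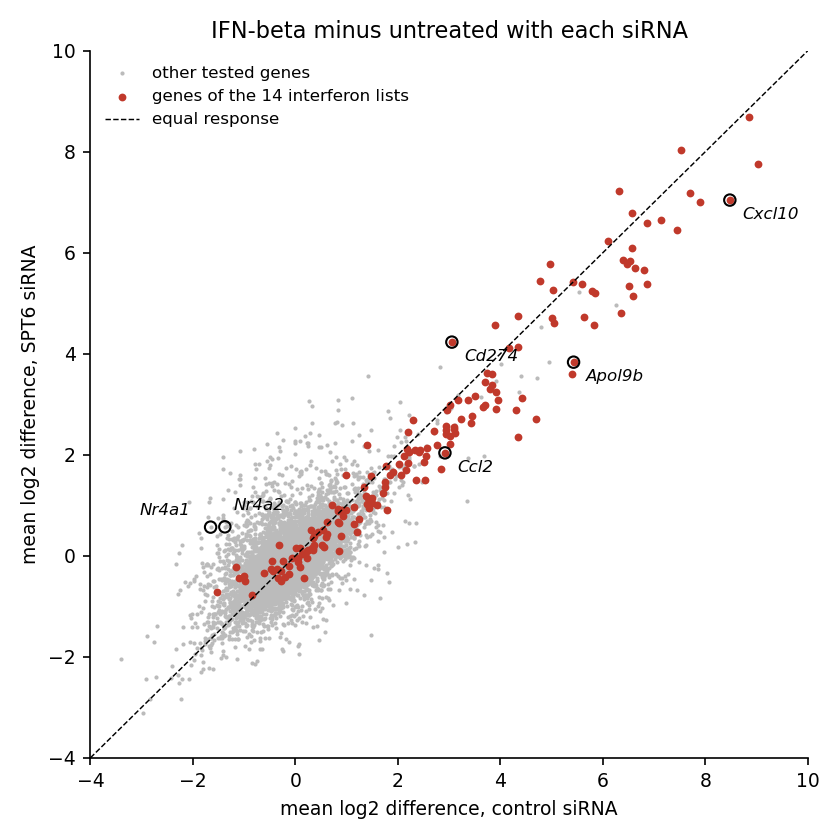
Mean log2 CPM of the 2 IFN-beta libraries minus the untreated library, SPT6 siRNA (vertical) against control siRNA (horizontal), 1 point per tested gene. Most genes of the 14 interferon lists (red) lie along and slightly below the dashed line of equal response, Cd274 lies above it, and Nr4a1 and Nr4a2 lie above 0 on the vertical axis and below 0 on the horizontal axis.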

How the data were processed

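Per the labels' protocols, total RNA was isolated from NIH3T3 cells by TRIzol, libraries were prepared by Ovation SP Ultralow, and paired ends were read by a HiSeq2000. The deposited values are whole-number counts per gene, made by the authors and not normalised. TopHat2 2.1.0, HTSeq 0.6.1p1, DESeq2, mm10 and GRCm38 appear in the submitters' processing notes without roles. The annotation and strand setting are not given in the sources used here. Reads of overlapping or antisense partners may therefore be mixed. Lines naming no gene were left out: 33.8% to 37.5% of reads had no feature, 27.9% to 31.3% were not unique and 32.9% to 38% were in genes.

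In R 4.3.3, edgeR 4.0.16 kept genes by filterByExpr (count minimum 10), normalised by TMM and fitted 4 group means over all 6 libraries by robust quasi-likelihood, with 2 residual degrees of freedom. Both come from the treated pairs, and each untreated library, being alone, is taken to vary as they do. A standard error is the absolute log2 difference divided by √F. Untreated counts of 0 were set at a floor of 3 counts in that library, and ratios over 1 to 3 counts carry an exact 95% Poisson interval of the untreated count; both cover counting error only. Same-numbered IFN-beta libraries of the 2 siRNAs deviated together (r = 0.56 across genes), but the labels do not tie the numbers to a batch, so no replicate block was used. Replicates differed by far more than sampling noise. The script was tested on simulated counts. Alternatives were other normalisations, count filters, prior counts and tools (DESeq2 1.42.0, limma 3.58.1), the block, and leaving out libraries.

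The genes, libraries and lists were chosen with earlier results of these data known. Named genes were Supt6, the called genes, the 15 highest and 10 lowest differences with an average log2 CPM of at least 3, up to 4 members a list with the smallest p, the 5 smallest p of the difference of responses in each direction and a panel of interferon genes. The text describes part of these and adds list members to show levels. Promoters are from RefSeq (GRCm38.p6) and positions follow that build.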

Additional observations from a re-analysis of the deposited data

How the results depend on the processing

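The count of called genes in the SPT6 siRNA response, 6, went to 12 with library size only, 46 with no count filter, 129 with DESeq2, 0 with limma-voom, and 14 with only the SPT6 siRNA groups, and stayed at 6 with DESeq2's size factors and a stricter count filter. Leaving out 1 library gave 9 (without SPT6 IFN-beta replicate 1) to 25 (without SPT6 IFN-beta replicate 2), and 14 without either control IFN-beta library. The same 6 genes were called under each of these except limma-voom, where 0 remained, without SPT6 IFN-beta replicate 1, where 4 remained, and without control IFN-beta replicate 1, where 5 remained. With the replicate number as a block, which the labels do not tie to a batch and only 2 pairs of libraries carry, 545 genes were called, the 6 among them. The control siRNA count of 18 went to 77 with no count filter, 10 with a stricter filter, 204 with DESeq2, 5 with limma-voom, 957 with the replicate block, 34 with only the control siRNA groups, and 16 to 52 without 1 library, the 52 without SPT6 IFN-beta replicate 1 and 45 without SPT6 IFN-beta replicate 2. The difference of responses had 0 called genes under every alternative except the replicate block, which called 4, Nr4a1 and Nr4a2 among them.

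Genes 2-fold higher in both libraries, 304, ranged from 206 with a stricter count filter to 346 with a prior count of 0.5, and 2-fold lower genes, 116, went to 57 with a prior count of 5 and 63 with a stricter filter. Describing the response by 1 IFN-beta library gave 420 to 815 higher and 278 to 699 lower genes, since 1 library then sufficed. Among named genes, signs turned only for Ifnar1, Ifnar2, Supt6, Tek and Vwf, none of them called. With the block, Ifnar1 went to 0.075, Ifnar2 to 0.044 and Tek to 0.053 in log2. Without 1 library, Ifnar1 ranged from -0.16 to 0.046, Ifnar2 from -0.41 to 0.0023, Supt6 from -0.20 to 0.078 and Vwf from -0.16 to 1.08. What made the counts differ between settings was not tested. The single untreated library and the few residual degrees of freedom limit every test here. The main fit had 2. Fewer were left with the replicate block, with only the groups compared and without 1 library.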
